A study of Mus musculus with 2 samples.

Results

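The 10 genes described here are 2 FOXO transcription factors (Foxo1 and Foxo3), the thioredoxin inhibitor Txnip, and 7 redox defence enzymes (Sod1, Sod2, Cat, Prdx1, Gpx1, Gclm and Hmox1). They were taken by name from the 31053 genes of the matrix, and all 10 were present. The cells were mouse LSK cells, sorted from the bone marrow of C57BL/6JRj animals as lacking lineage markers and carrying Sca-1 and c-Kit, a fraction that holds stem cells and early progenitors. The old group was 22 to 28 months old and the young group 3 to 5 months old, with 4 mice per age group given by the methods and 1 CITE-Seq library per age, and no other treatment or allele in the labels. CITE-Seq counts transcripts and antibody tags of the same cell by unique molecular identifiers (UMIs). A barcode suffix, 1 or 2, marks the library, and the sources used here do not tie a suffix to an age, so no age is named and no p-value is given.

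Of 4688 cells, 4068 had under 10% mitochondrial UMIs and over 1500 genes (1524 of suffix 1 and 2544 of suffix 2), and 3986 of these also had tag values. The suffixes shared 0 barcodes. The kept cells held a median of 15024 UMIs in suffix 1 and 14766 in suffix 2. Cells were placed in 4 gates by the CD150 tag, split at the 75th percentile of each suffix, and by the CD48 tag, split at the 25th. Among LSK cells, CD150-positive CD48-negative is the classical surface phenotype of long-term stem cells. The CD150-high CD48-low gate held 172 cells of suffix 1 and 383 of suffix 2, the CD150-low CD48-low gate 204 and 250, the CD150-high CD48-high gate 209 and 241, and the CD150-low CD48-high gate 912 and 1615. The tag cuts differed between the libraries: the CD48 cut was 224 tags in suffix 1 and 42 in suffix 2, and the CD150 cut 40 and 407. A gate therefore does not hold cells of equal tag counts in both libraries. The label was checked on markers. The 10 stem cell markers include Slamf1, which encodes CD150, so they are not wholly independent of the gate. They summed to 1201 and 1583 UMIs per 1000000 UMIs (CPM) in the CD150-high CD48-low gate of suffix 1 and 2. The CD150-low CD48-low gate gave 1065 and 1235, the CD150-high CD48-high gate 807 and 1251.5, and the CD150-low CD48-high gate 527 and 387. Kit and Ly6a, which encode the sort markers c-Kit and Sca-1, were in a list with Ly6e and Ptprc, and all 4 were detected in every gate. The 4 T and NK cell markers summed to between 3.61 and 203 CPM over the gates and libraries, most in the CD150-low CD48-high gate (131 and 203). Among them Cd3e was at 0 in every gate. Cd3d and Trbc2 were also at 0 in the CD150-high CD48-low gate of both libraries. The same held in suffix 2 for the CD150-low CD48-low and CD150-high CD48-high gates, so Nkg7 alone made up those sums. The 5 B and plasma cell markers reached 4999 CPM in the CD150-low CD48-high gate of suffix 2, which with suffix 1 held 11 of the 12 cells with over 10% immunoglobulin UMIs.

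FOXO factors sit in the cytoplasm when growth factor signalling through AKT phosphorylates them, and enter the nucleus when that signal falls, where they switch on cell cycle inhibitors and antioxidant enzymes. Blood stem cells need them to stay quiescent and to hold reactive oxygen species low. The enzymes act in sequence: superoxide dismutases turn superoxide into hydrogen peroxide, and catalase, peroxiredoxins and glutathione peroxidases remove the peroxide. TXNIP, an alpha-arrestin, binds reduced thioredoxin and inhibits it, and it also limits glucose uptake.

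Promoter sequences of 9 of the 10 genes were matched in RefSeq (GRCm38.p6), as windows from 250 bases before to 50 after a start site given by RefSeq. That site is not the start of the GENCODE gene for every member, and for Sod2 the window lies inside the gene. Each window was searched on both strands for a FOXO core (GTAAACA), for the core of the antioxidant response element bound by NRF2 (TGACNNNGC), and for the E-box CACGTG. The first was found in 1 member, Txnip, the second in 3 members (Sod1, Prdx1 and Gclm), and the third in 0 of the 9. Of 32851 promoters of the same length, 3.65% held the FOXO core, 12.4% the antioxidant core and 7.15% the E-box. The 4 stretches with a match are printed as the promoters in which a motif was found, with the matched letters in capitals. All 4 genes lie on the plus strand. The Txnip stretch is chr3:96557776-96557895, upstream of the gene (chr3:96557957-96561883), and its match starts 121 bases before the start site on the strand of the gene. The stretches of Sod1 (chr16:90220632-90220751), Prdx1 (chr4:116685406-116685525) and Gclm (chr3:122245363-122245482) carry the match on the opposite strand.
Txnip: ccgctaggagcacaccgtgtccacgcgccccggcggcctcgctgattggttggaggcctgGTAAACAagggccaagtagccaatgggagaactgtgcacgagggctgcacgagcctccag
Sod1: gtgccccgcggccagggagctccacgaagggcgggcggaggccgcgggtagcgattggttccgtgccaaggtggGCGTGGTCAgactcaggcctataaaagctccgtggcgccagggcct
Prdx1: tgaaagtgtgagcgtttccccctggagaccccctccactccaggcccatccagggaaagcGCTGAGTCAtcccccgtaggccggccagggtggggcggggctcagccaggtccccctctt
Gclm: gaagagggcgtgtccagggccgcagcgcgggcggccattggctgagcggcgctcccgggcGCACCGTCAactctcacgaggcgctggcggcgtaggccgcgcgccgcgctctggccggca
The windows of Foxo1, Foxo3, Sod2, Cat and Gpx1 held none of the 3 motifs. These are letter matches only, and other forms of the 3 motifs, such as E-boxes other than CACGTG, were not searched. No binding data were analysed here.

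Levels are UMIs of a gene summed over the cells of a gate and library, per 1000000 UMIs of the same cells. Intervals are exact 95% Poisson intervals for a level and exact conditional binomial intervals for a ratio, and both cover counting error only, not the spread between mice. A gene was called when its ratio passed 1.5-fold in the same direction in both libraries with both intervals excluding 1, among genes with at least 20 UMIs over the 2 gates in each library. All 10 genes passed that count minimum in every comparison of gates.

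**Figure D1:**
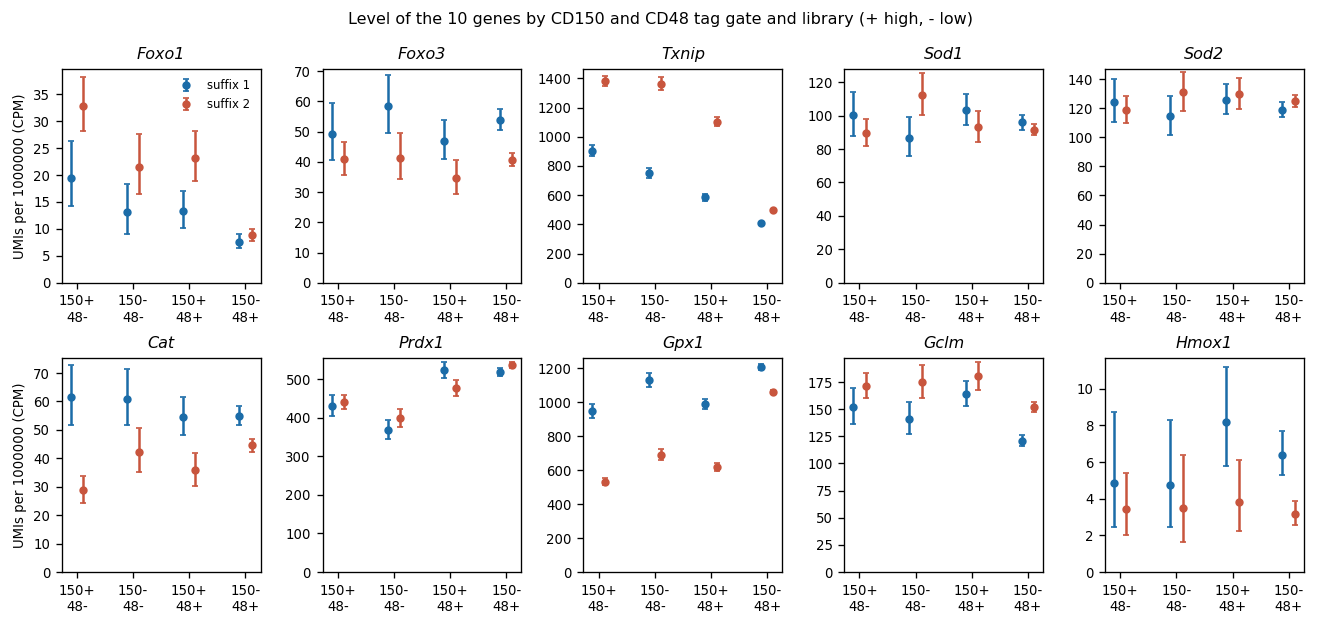
Level of each gene in UMIs per 1000000 (y axis, from 0) in the 4 tag gates (x axis) for suffix 1 (blue) and suffix 2 (red), with 95% Poisson intervals. Txnip falls from 904 and 1383 CPM in the CD150-high CD48-low gate to 409.6 and 498.5 in the CD150-low CD48-high gate, while Sod1 and Sod2 stay between 86.7 and 131 CPM throughout.

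Txnip and Foxo1 were the 2 members past 1.5-fold in CD150-high CD48-low cells against CD150-low CD48-high cells in both libraries, both as higher, and none of the 7 enzymes was called in either direction at that fold. Across all 11922 genes with enough UMIs, 16.4% were called in this comparison, 8.18% as higher and 8.21% as lower, so 2 of 10 members is close to the share of all genes. The median log2 ratio of the 10 members was -0.03, the same as over all genes tested (-0.03).

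Foxo1, which has a role in lymphoid commitment beside its role in stem cells, was counted at 19.5 CPM (95% interval 14.2 to 26.2, 44 UMIs) in the CD150-high CD48-low cells of suffix 1 and at 32.8 (28.1 to 38.1, 173 UMIs) in those of suffix 2. In the CD150-low CD48-high gate it stood at 7.65 (135 UMIs) and 8.82 (272 UMIs). The 2 gates did not overlap in either library. The ratio was 2.55 (1.77 to 3.61) in suffix 1 and 3.72 (3.06 to 4.52) in suffix 2. The gates between them held 13.1 and 21.5 CPM (CD150-low CD48-low) and 13.3 and 23.2 CPM (CD150-high CD48-high), which could not be told apart from each other within a library. Its call ended under 5% mitochondrial UMIs, at tag cuts of the 90th and 10th percentile and with tag cuts set over both libraries together. Its ratio over both libraries was then 3.89 (1.98 to 7.37), 2.09 (1.42 to 2.96) and 3.52 (3.00 to 4.12), against 3.44 (2.90 to 4.06) as reported, and the gate held 18, 54 and 33 cells of suffix 1. In both libraries Foxo1 was lowest where CD150 was low and CD48 high.

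Foxo3, the FOXO factor most studied in stem cell maintenance, showed no such difference. Its level was 49.3 and 40.8 CPM in the CD150-high CD48-low gate and 53.8 and 40.7 in the CD150-low CD48-high gate, with ratios of 0.916 (0.746 to 1.12) and 1.002 (0.863 to 1.16). Over all 4 gates it ranged from 47.1 to 58.6 CPM in suffix 1 and from 34.6 to 41.3 in suffix 2. Intervals of neighbouring gates overlapped throughout.

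Txnip differed between most of the gates. In suffix 1 its level was 904 CPM (865 to 944) in CD150-high CD48-low cells, 750.4 (717 to 785) in CD150-low CD48-low cells, 585 (563 to 607) in CD150-high CD48-high cells and 409.6 (400.2 to 419) in CD150-low CD48-high cells. No 2 of these intervals overlapped. In suffix 2 the levels in the same order were 1383 (1351 to 1415), 1365 (1322 to 1408), 1104 (1073 to 1135) and 498.5 (491 to 506). There the 2 CD48-low gates overlapped and the other neighbours did not. The ratio of the CD150-high CD48-low to the CD150-low CD48-high gate was 2.21 (2.10 to 2.32) in suffix 1 and 2.77 (2.70 to 2.85) in suffix 2.

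The difference lay in the bulk of the cells and not in a few. With each cell thinned to 9000 UMIs, the median cell of the CD150-high CD48-low gate held 7.5 Txnip UMIs in suffix 1 (10th to 90th percentile 2.5 to 16) and 12 in suffix 2 (6 to 20). In the CD150-low CD48-high gate the median cell held 3 (0 to 9) and 4 (1 to 12). Thinning left out 36 and 92 shallower cells of these gates over both libraries, and reduced the ratio pooled over libraries from 2.66 to 2.24.

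The superoxide dismutases did not reach 1.5-fold between these 2 gates in either library. Sod1, the copper and zinc enzyme of the cytosol, was counted at 100.3 and 89.4 CPM in CD150-high CD48-low cells and at 95.9 and 91.5 in CD150-low CD48-high cells (ratios 1.05 and 0.978). Sod2, the manganese enzyme of mitochondria, stood at 124 and 119 against 119 and 125 CPM (ratios 1.05 and 0.949). All 4 of these ratio intervals included 1, and the widest ran from 0.906 to 1.20, so a difference of 1.5-fold lay outside the counting error in each library. The CD150-low CD48-low gate of suffix 2 stood apart for Sod1, at 112.5 CPM (ratio 0.795, 0.688 to 0.918, of the CD150-high CD48-low gate to it).

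Among the peroxide-removing enzymes, Gpx1 and Prdx1 were lower in CD150-high CD48-low cells in both libraries but did not reach 1.5-fold in both. Gpx1, the main cytosolic glutathione peroxidase, was at 948 CPM against 1208 in suffix 1 and at 531 against 1059 in suffix 2. Its ratios were 0.785 (0.750 to 0.820) and 0.502 (0.483 to 0.522), so the fall was past 1.5-fold in suffix 2 alone. Prdx1, a peroxiredoxin that thioredoxin recharges, was at 431 against 519 CPM and at 440.3 against 536.5, with ratios of 0.830 (0.776 to 0.887) and 0.821 (0.785 to 0.857). Both genes moved opposite to Txnip in this comparison. Cat, the peroxisomal catalase, went different ways in the 2 libraries. It stood at 61.7 against 55.0 CPM in suffix 1 (ratio 1.12, 0.933 to 1.34) and at 28.9 against 44.5 in suffix 2 (0.648, 0.544 to 0.766).

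Gclm, the modifier subunit of the enzyme that starts glutathione synthesis, was at 152 against 121 CPM in suffix 1 and 171 against 152 in suffix 2. The ratios of 1.26 (1.12 to 1.41) and 1.13 (1.05 to 1.21) excluded 1 in both libraries and stayed below 1.5. Hmox1, the inducible haem oxygenase, was close to the limit of detection. It had 11 and 18 UMIs in CD150-high CD48-low cells (4.88 and 3.42 CPM) and 113 and 98 in CD150-low CD48-high cells (6.41 and 3.18 CPM). Its ratio intervals ran from 0.370 to 1.42 and from 0.612 to 1.79. A fall of 1.5-fold therefore lay within counting error in both libraries, and a rise of 1.5-fold in suffix 2 only.

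**Figure D2:**
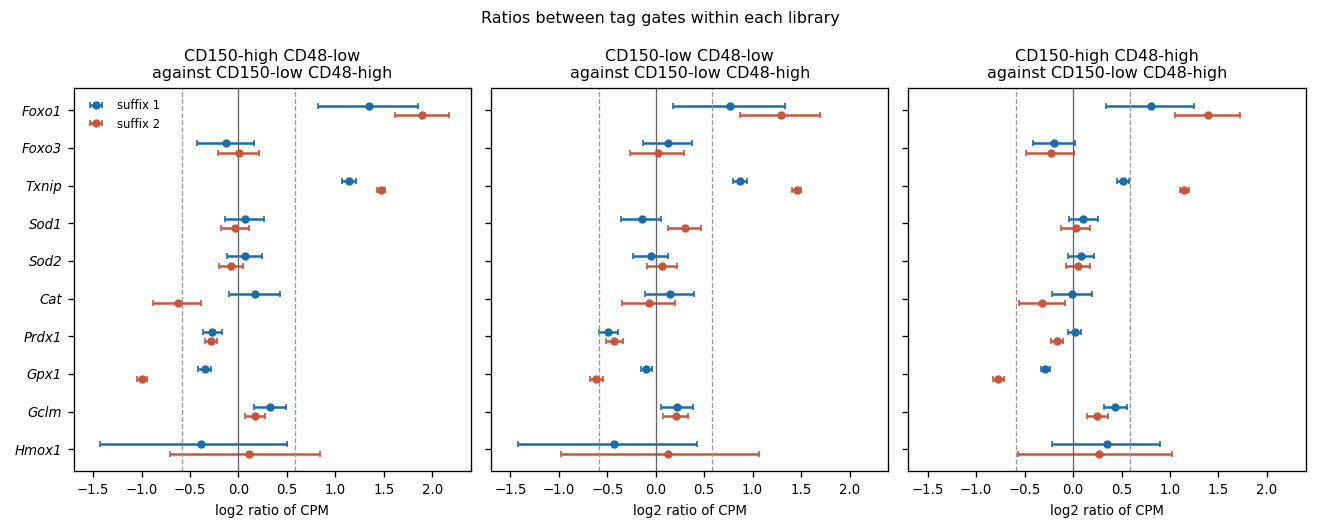
Log2 ratio of CPM (x axis) of each gene (y axis) for 3 gates against the CD150-low CD48-high gate, with 95% intervals for suffix 1 (blue) and suffix 2 (red). Dashed lines mark 1.5-fold. Foxo1 lies to the right in all 3 panels, Txnip lies past the line in both libraries in the first and second panel, and Gpx1 lies to the left in all 3.

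The other gates place these differences on the 2 tags. The comparisons share the CD150-low CD48-high cells, so their values are given side by side. In CD150-low CD48-low cells, Txnip was again higher, 1.83-fold (1.74 to 1.93) in suffix 1 and 2.74-fold (2.64 to 2.84) in suffix 2. Foxo1 was 1.71-fold (1.13 to 2.51) and 2.44-fold (1.82 to 3.23) higher. These were the 2 members called, where 10.1% of 11861 genes were called. In the same gate Prdx1 was lower, with ratios of 0.712 (0.665 to 0.761) and 0.744 (0.700 to 0.790), and Gpx1 was at 0.934 (0.898 to 0.971) and 0.653 (0.624 to 0.683). Sod1 gave 0.904 (0.781 to 1.04) and 1.23 (1.09 to 1.38), with no shared direction. The call of Foxo1 ended with no cell filter, with cuts at the median and thinned, at 2.22, 1.80 and 1.87 over both libraries against 2.09 as reported. The call of Txnip ended with cuts over both libraries and without cells with G2M markers, at 2.42 and 1.63 against 2.31. Both ended under 5% mitochondrial UMIs, Foxo1 at 2.36 (0.876 to 5.49) and Txnip at 2.04 (1.79 to 2.32).

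In CD150-high CD48-high cells, Foxo1 was the 1 member called, at 1.74-fold (1.27 to 2.37) and 2.63-fold (2.07 to 3.31), where 6.51% of 12026 genes were called. Txnip was 1.43-fold (1.37 to 1.49) higher in suffix 1, under the 1.5-fold limit, and 2.21-fold (2.14 to 2.29) in suffix 2. Gclm gave 1.35 (1.24 to 1.47) and 1.19 (1.10 to 1.28), and Prdx1 gave 1.01 and 0.891. The median cell of this gate carried 464 CD48 tags in suffix 1 and 78 in suffix 2, and the part of this in the values was not tested. The call of Foxo1 was replaced by one of Gclm under 5% mitochondrial UMIs and of Txnip at cuts of the 90th and 10th percentile, with Foxo1 ratios of 2.71 and 2.36 over both libraries. Thinned to 9000 UMIs, 0 members were called, where 4.82% of all genes were. Foxo1 then stood at 12.4 against 8.47 CPM in suffix 1 and at 23.8 against 10.00 in suffix 2, with a ratio over both libraries of 1.96 (1.48 to 2.57). Its call also ended with cuts at the median, at 1.61 (1.28 to 2.01) over both libraries, against 2.16 as reported.

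Between the 2 CD48-low gates, which differ in CD150, 0 of the 10 members were called, where 2.08% of 10137 genes were. Foxo1 was 1.496-fold (0.931 to 2.42) and 1.53-fold (1.14 to 2.07) higher on the CD150-high side. At tag cuts of the 90th and 10th percentile its direction turned, to 0.702 (0.459 to 1.05) over both libraries, against 1.64 as reported. Txnip was 1.20-fold (1.13 to 1.28) higher in suffix 1 and within counting error in suffix 2 (1.01, 0.974 to 1.05). Gpx1 was lower on the CD150-high side in both libraries, at 0.840 and 0.769.

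**Figure D3:**
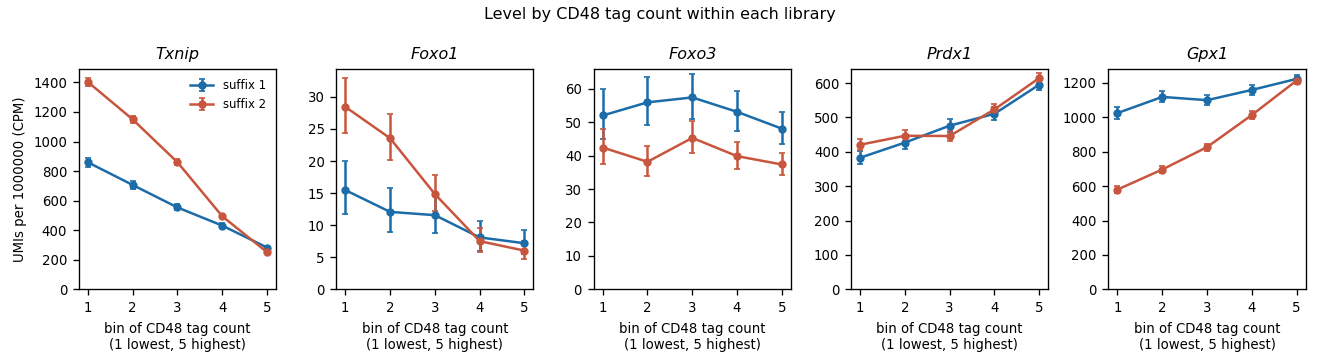
Level in UMIs per 1000000 (y axis, from 0) of 5 genes in 5 equal bins of CD48 tag count (x axis) for suffix 1 (blue) and suffix 2 (red), with 95% Poisson intervals. Txnip and Foxo1 fall from the lowest to the highest bin, Prdx1 rises, and Foxo3 stays between 37.4 and 57.4 CPM.

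Cutting the cells into 5 equal bins by the CD48 tag, with no gate on CD150, showed the same pattern without a single cut. In suffix 1 Txnip ran from 859 CPM in the lowest bin through 706, 554 and 431 to 283 in the highest. In suffix 2 it ran from 1403 through 1149, 859 and 494 to 251. The levels fell at every step in both libraries. Foxo1 went from 15.5 to 7.19 CPM in suffix 1 and from 28.4 to 6.04 in suffix 2. Prdx1 went the other way, from 383 to 595 CPM and from 421 to 615, and Gpx1 from 1024 to 1223 and from 579.6 to 1214. Median depth rose along the same bins, from 12255 to 26416 UMIs per cell in suffix 1 and from 12335 to 25360 in suffix 2, and its part in these levels was not tested beyond the thinned values above. Along 5 bins of the CD150 tag, from lowest to highest, Txnip went from 411 to 727 CPM and from 460.2 to 1288. Foxo1 went from 7.05 to 14.4 and from 6.61 to 29.2, and Gclm from 104.5 to 162 and from 137 to 177. Gpx1 went the other way, from 1243 to 945 and from 1126.5 to 557. Not every step was a rise: in suffix 2 Txnip was lowest in bin 2 (433) and Gclm highest in bin 4 (180).

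Cells close to the tag cuts were summed over both libraries, whose shares on each side of a cut were not matched. Their values can therefore not be set against the gate differences within each library. Within 10 percentile points of the CD150 cut among CD48-low cells of both libraries, Txnip stood at 1233 CPM in the 212 cells just inside the CD150-high CD48-low gate and at 1274 in the 138 just outside. At the CD48 cut among CD150-high cells the values were 1261 in 201 cells and 1131 in 127. Foxo1 stood at 27.6 and 22.4 CPM at the first cut and at 28.8 and 23.2 at the second.

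**Figure D4:**
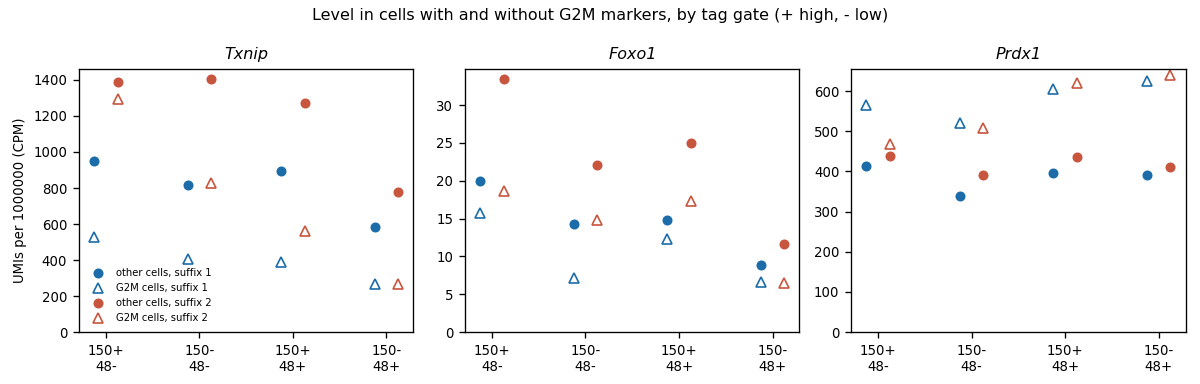
Level in UMIs per 1000000 (y axis, from 0) of Txnip, Foxo1 and Prdx1 in cells with at least 2 of 6 G2M markers (open triangles) and in the other cells (filled circles), by tag gate (x axis), for suffix 1 (blue) and suffix 2 (red). Txnip lies lower and Prdx1 higher in the cells with G2M markers, by less than counting error in the CD150-high CD48-low gate of suffix 2.

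Cell cycle moved with these genes. Cells with UMIs of at least 2 of 6 G2M markers made up 8.14% and 3.39% of the CD150-high CD48-low gate in suffix 1 and 2, 11.8% and 4.80% of the CD150-low CD48-low gate, 47.4% and 13.7% of the CD150-high CD48-high gate, and 39.5% and 40.2% of the CD150-low CD48-high gate. At 9000 UMIs per cell the first and last gate gave 7.05% and 1.38%, and 31.3% and 33.4%. Txnip was lower in the cells with G2M markers, beyond counting error in 7 of the 8 combinations of gate and library. The other was the CD150-high CD48-low gate of suffix 2, with 13 such cells, where the ratio was 0.936 (0.827 to 1.05) for Txnip and 1.07 (0.867 to 1.31) for Prdx1. In the CD150-low CD48-high gate it stood at 266 against 582 CPM in suffix 1 and at 268 against 776 in suffix 2 (ratios 0.456 and 0.345). Prdx1 was higher in them, at 626 against 391 CPM and at 641 against 411 (ratios 1.60 and 1.56).

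Without the cells with G2M markers, Txnip was at 952 CPM in suffix 1 and 1386 in suffix 2 in the CD150-high CD48-low gate, and at 582 and 776 in the CD150-low CD48-high gate. The ratio pooled over libraries was 1.79 (1.74 to 1.84), against 2.66 (2.59 to 2.72) in all cells, and Txnip and Foxo1 were still the 2 members called, where 9.41% of all genes were. The Prdx1 ratio turned from below 1 to 1.07 (1.03 to 1.11). The Gpx1 ratio pooled over libraries was 0.628 (0.608 to 0.648). By library Gpx1 stood at 959 against 1174 CPM in suffix 1 and at 529 against 958 in suffix 2. It stayed lower in the CD150-high CD48-low gate in both, by less in suffix 1.

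The 2 libraries differed in several members within a gate, read here as suffix 2 over suffix 1. In the CD150-high CD48-low gate 4 of 10 members were past 1.5-fold, where 14.9% of 11076 genes were. Foxo1 was 1.68-fold (1.20 to 2.398) and Txnip 1.53-fold (1.46 to 1.61) higher in suffix 2, and Cat (0.468, 0.369 to 0.593) and Gpx1 (0.560, 0.530 to 0.593) were lower. In the CD150-low CD48-low gate 3 members were called (12.1% of all genes): Txnip at 1.82-fold, Foxo1 at 1.65-fold and Gpx1 at 0.613-fold. In the CD150-high CD48-high gate 5 were called (19.3%): Txnip at 1.89-fold and Foxo1 at 1.74-fold higher, with Cat at 0.655, Gpx1 at 0.625 and Hmox1 at 0.468. In the CD150-low CD48-high gate the 1 member called (8.09%) was Hmox1, at 0.496 (0.375 to 0.656), while Txnip was at 1.22 and Gpx1 at 0.876. Without the cells with G2M markers Txnip was no longer past 1.5-fold in the CD150-high CD48-low gate (1.46, 1.38 to 1.53) or the CD150-high CD48-high gate (1.42, 1.34 to 1.51), and the Foxo1 interval in the CD150-low CD48-low gate included 1 (1.55, 0.980 to 2.49). Hmox1 UMIs were clumped in suffix 1: a single cell held 12 of the 38 UMIs of the CD150-high CD48-high gate, and another 15 of the 113 of the CD150-low CD48-high gate.

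The cells in a gate were not alike between the libraries. Cd34, Flt3 and Cd48 together, marks of multipotent progenitors, summed to 216 CPM in the CD150-high CD48-low gate of suffix 1 and 43.9 in that of suffix 2, and the 6 G2M markers to 197 and 23.9. In the CD150-high CD48-high gate the megakaryocyte markers summed to 104 and 437 CPM and the erythroid markers to 76.5 and 18.4. In the CD150-low CD48-low gate the erythroid markers summed to 1.19 and 111. With the tag cuts set over both libraries together, the CD150-high CD48-low gate held 33 cells of suffix 1 and 614 of suffix 2. The Txnip ratio of suffix 2 to suffix 1 was then 1.30 (1.17 to 1.43) in that gate and 0.898 (0.875 to 0.922) in the CD150-low CD48-high gate. Of the 4 members called there, 1 was called under these cuts, where 5.18% of all genes were, Cat at 0.403 (0.279 to 0.600). Foxo1 stood at 1.97 with a wide interval (0.892 to 5.42), and Gpx1 at 0.671 (0.600 to 0.753), just short of the limit. Age, library and the cells in each gate cannot be told apart here.

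**Figure D5:**
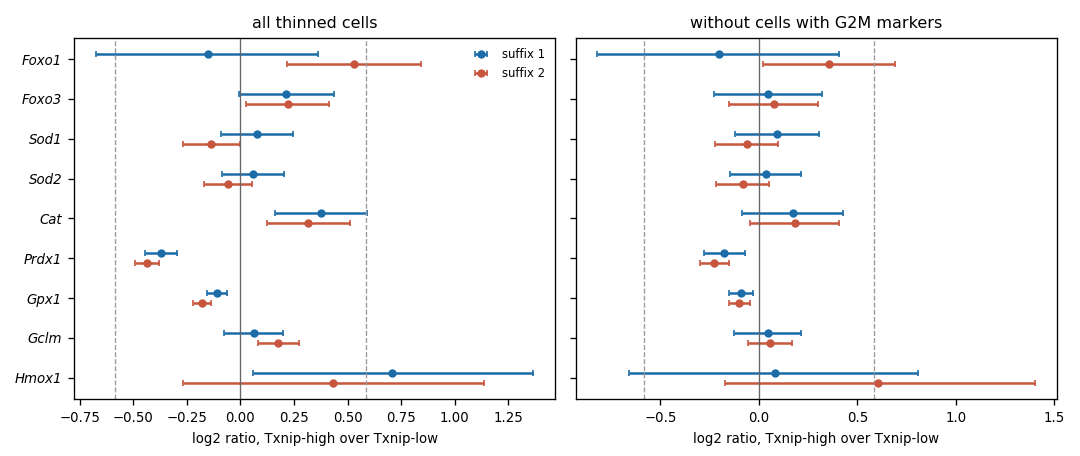
Log2 ratio (x axis) of the other 9 members in Txnip-high over Txnip-low cells, with 95% intervals, for suffix 1 (blue) and suffix 2 (red), over all thinned cells (left) and without the cells with G2M markers (right). Dashed lines mark 1.5-fold. Prdx1 lies below a ratio of 1 (log2 of 0) in both panels, closer to it on the right, and Hmox1 and Foxo1 have the widest intervals.

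Txnip was also set against the other members cell by cell. Each cell was thinned to 9000 UMIs, cells were split at the median thinned Txnip count within each gate and library, and the counts of the other genes were summed over 3770 cells. Of the 9 other members 0 were called between Txnip-high and Txnip-low cells, where 5.3% of 11416 genes were called (1.61% higher and 3.69% lower). Prdx1 was lower in Txnip-high cells, at 0.774 (0.734 to 0.816) in suffix 1 and 0.740 (0.711 to 0.770) in suffix 2. Gpx1 was lower as well, at 0.928 (0.898 to 0.959) and 0.882 (0.857 to 0.908). Cat was higher, at 1.30 (1.12 to 1.51) and 1.246 (1.09 to 1.43).

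Neither FOXO factor was called in this split. Foxo3 gave 1.16 (0.996 to 1.35) and 1.16 (1.02 to 1.33), and Foxo1 gave 0.899 (0.626 to 1.29) in suffix 1 and 1.44 (1.16 to 1.80) in suffix 2. Sod1 (1.05 and 0.910), Sod2 (1.04 and 0.961) and Gclm (1.04 and 1.13) stayed near 1, and Hmox1 gave 1.63 (1.04 to 2.58) and 1.35 (0.831 to 2.20). At 15000 UMIs per cell, which 1989 cells reached, Foxo1 and Hmox1 were called as higher, at 2.07 and 1.78, and at 2.45 and 1.88, where 4.63% of all genes were called. Cat at that depth was at 0.958 (0.813 to 1.13) and 1.14 (0.989 to 1.32), with no shared direction. Cell cycle differed between the sides of this split: in the CD150-low CD48-high gate of suffix 1, cells with G2M markers were 21.6% of the Txnip-high and 58.2% of the Txnip-low cells, and in suffix 2 they were 17.1% and 64.2%. Without them the Prdx1 ratio was 0.885 (0.823 to 0.951) and 0.855 (0.813 to 0.899), and the Cat ratio 1.13 in both libraries with intervals that included 1.

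Across cells within the 8 combinations of gate and library, Spearman's rho between thinned Txnip and Prdx1 counts ranged from -0.357 to -0.086, and with Gpx1 from -0.237 to -0.048. For Foxo1 (-0.112 to 0.134) and Foxo3 (-0.037 to 0.091) it took both signs. These are descriptions over cells that share a library, and the sparse counts of the FOXO factors limit how large rho can be.

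Over the 8 combinations, the genes whose log2(CPM + 10) followed Txnip most closely among 8423 genes with at least 20 UMIs in each were Tmem63a (Pearson r 0.993), Aplp2 (0.991), Triqk (0.990), Trib3 (0.989) and Procr (0.989), which encodes the stem cell marker EPCR. Foxo1 ranked 168th (r 0.950), Gclm had r 0.781 and Gpx1 -0.880. For Foxo3 the closest were Zfp146 (0.992), Peli2 (0.966), Anxa6 (0.964), Ptprc (0.959) and Rev1 (0.955), and Txnip had r -0.497, which was -0.063 with each library centred. The 8 points share 2 libraries. With each library centred, 1 of the 5 genes closest to Txnip (Aplp2) and 2 of the 5 closest to Foxo3 (Zfp146 and Peli2) stayed among the first 5.

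Related genes were read from lists around the members, for CD150-high CD48-low against CD150-low CD48-high cells, beside the 8.18% of all genes called higher and 8.21% called lower. Among the alpha-arrestins and their regulator MondoA, 2 of 7 genes with enough UMIs were higher (Txnip and Arrdc4) and 0 lower. Arrdc4, which like Txnip answers to MondoA, stood at 31.1 against 16.0 CPM in suffix 1 and 46.9 against 21.7 in suffix 2. Of 3 FOXO factors with enough UMIs, Foxo1 was higher and 0 were lower, and Foxo4 gave 7.10 against 6.01 and 9.49 against 6.39 CPM. Of 14 upstream regulators and cofactors of FOXO, 0 were called.

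Among 23 FOXO target genes, 3 were higher and 4 lower, with a median log2 ratio of 0.27, against -0.03 over all genes tested. Cdkn1c, the cyclin-dependent kinase inhibitor p57, rose most, from 9.92 to 56.8 CPM in suffix 1 and from 12.2 to 102 in suffix 2. Cited2, a transcriptional cofactor, was at 249.5 against 155 and 365 against 139.5 CPM, and Gabarapl1, an autophagy gene, at 160 against 97.7 and 216 against 91.8. Il7r, the interleukin 7 receptor, and the cyclin Ccng2 were among those lower.

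Of 26 NRF2 regulators and targets, 5 were higher and 0 lower. Maff, a small MAF partner of NRF2, stood at 15.1 against 3.00 CPM in suffix 1 and 20.7 against 3.66 in suffix 2, Srxn1, which repairs overoxidised peroxiredoxins, at 12.9 against 6.24 and 28.5 against 6.97, and Osgin1 at 13.8 against 5.39 and 11.2 against 4.25. Of 20 glutathione genes, 2 were higher (Gpx3 and Gstm5) and 0 lower. Gpx3, the secreted glutathione peroxidase, had 16 and 159 UMIs in CD150-high CD48-low cells (7.10 and 30.2 CPM) and 5 and 17 in CD150-low CD48-high cells (0.283 and 0.551 CPM). Of 12 thioredoxin and peroxiredoxin genes, Srxn1 alone was called, and of 4 superoxide dismutase and catalase genes, 0. Of 6 NADPH oxidase genes, which make superoxide, 2 were lower and 0 higher. Ncf1 stood at 4.00 against 41.3 and 1.14 against 28.0 CPM, and Ncf4 at 14.2 against 58.2 and 1.33 against 45.3. In CD150-low CD48-low cells the NRF2 list gave 2 higher of 26 (Maff and Osgin1), the glutathione list 3 of 19 (Gstm5, Gsta4 and Gstm1) and the NADPH oxidase list 1 lower of 6 (Ncf1). The FOXO targets gave 4 higher and 2 lower of 23, with Cdkn1c the 1 gene called higher in both comparisons, and among the 7 alpha-arrestins and MondoA Txnip alone was called. In that comparison 4.7% of all genes were called higher and 5.41% lower.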

How the data were processed

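The authors deposited UMI counts per gene and cell, made with Cell Ranger 3.1.0 (builds GRCm38 and mm10, per the submitters' processing notes) and aggregated over both libraries, a step the methods describe as normalizing them. The depths given are those after it. The authors deposited the tag values on a log10 scale, made with CITE-seq-Count 1.4.0. They were turned back to tag counts, 100.0% of which were whole to within 1e-06, and a tag count of 0 was placed below all others. The 10 members and all gene lists were chosen with earlier results of these data known.

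Counts were summed per gate and barcode suffix and divided by the summed UMIs of the same cells, with Python 3.11.15, numpy 2.4.6, scipy 1.17.1 and pandas 2.3.3. With 1 library per age and no link of suffix to age, no test across samples was run. Intervals are at the 95% level. The scripts were tested on simulated counts. Scrublet (scanpy 1.11.5, expected rate 0.06) called 5 doublets in suffix 1 (0.328%) and 32 in suffix 2 (1.26%), which were kept. The share in suffix 1 is too low to show that the caller worked there. Named genes are the 10 members, up to 3 called genes per list and direction with the largest ratio, and the 5 genes most like Txnip and Foxo3, beside genes of the marker lists. Foxo4 was named after its values were seen. Alternatives were other cell filters, tag cuts, scalings, folds, depths and single libraries, and cells without G2M markers. Leaving out the immunoglobulin-rich cells was added after the data were seen. The values of a gene counted in the FOXO target list are not reported here.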

Additional observations from a re-analysis of the deposited data

Results flagged for a closer look

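Data outside the comparisons held levels whose 95% interval lay wholly above the value of the highest gate of the same library for 2 members, Hmox1 and Foxo3. Cells that failed the filter on mitochondrial UMIs or gene number numbered 172 in suffix 1 and 448 in suffix 2. Hmox1 stood at 36.1 CPM (24.7 to 51.0, 32 UMIs) in those of suffix 1, where the highest gate had 8.16 CPM, and at 13.2 CPM (8.77 to 19.1, 28 UMIs) in those of suffix 2, where the highest gate had 3.82. The UMIs lay in 13 and 8 cells, with up to 11 and 21 in a single cell. The 6 macrophage markers summed to 19.2 and 16.0 CPM in the failing cells, with 1 of the 6 at 0 in each library, and 1 of the 13 and 2 of the 8 cells with Hmox1 held at least 3 of their UMIs. Foxo3 stood at 54.2 CPM (44.8 to 65.1, 115 UMIs) in the failing cells of suffix 2, where the highest gate had 41.3 (34.2 to 49.5), an interval that overlaps. In those of suffix 1 it stood at 68.9 CPM (52.7 to 88.5) against 58.6, with an interval that reached below the highest gate. What sets these levels was not tested.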

How the results depend on the processing

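No paired analysis of the ages was possible because each age is 1 library. Gates were compared within each library, and both values are given with no test over the 2 libraries. Of the values of single members under the alternatives, 546 moved by less than their counting interval, 227 by more, and 3, all called as reported, turned direction with intervals that included 1: Cat in suffix 2 over suffix 1 in CD150-high CD48-high cells (1.02 under 5% mitochondrial UMIs), Hmox1 in the CD150-low CD48-high gate (1.38 under the same limit) and Foxo1 in the CD150-low CD48-low gate (0.616 with the tag cuts set over both libraries). Over called and uncalled ratios, 98 crossed 1, and 7 of these had intervals that excluded 1 on both sides. Between the libraries these were Txnip in CD150-low CD48-high cells (0.778 under 5% and 0.898 with cuts over both libraries), Sod1 in CD150-low CD48-low cells (0.560 under 5%), and Prdx1 in CD150-low CD48-high cells (0.920 under 5%) and CD150-high CD48-high cells (1.10 without cells with G2M markers). Between gates these were Prdx1 in CD150-high CD48-low against CD150-low CD48-high cells (1.07 without cells with G2M markers) and Txnip between the CD48-low gates (0.919 at the 90th and 10th percentile). The causes were not tested. The limit of 5% leaves 16 to 143 cells per gate and library.

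The Txnip ratio of CD150-high CD48-low to CD150-low CD48-high cells stayed above 1.5 in all alternatives run: 3.94 under 5% mitochondrial UMIs, 2.06 at the 90th and 10th percentile, 3.08 with cuts at the median, 2.96 with cuts over both libraries, 2.18 as a mean of per-cell CPM, 2.88 with mitochondrial and ribosomal protein genes out of the total, 2.24 thinned, 1.79 without cells with G2M markers, 2.21 in suffix 1 and 2.77 in suffix 2.

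Counts of called members follow, each with the share of all genes called under the same setting. In that comparison the 2 calls (16.4%) became 1 under 5% mitochondrial UMIs (4.9%), at the 90th and 10th percentile (11.4%) and with cuts over both libraries (11.7%), 3 at a lower fold limit (25.1%, Gpx1 added as lower) and 4 in suffix 2 alone (35.3%). In CD150-low CD48-low against CD150-low CD48-high cells the 2 calls (10.1%) became 1 with no cell filter (9.96%), cuts at the median (9.22%), cuts over both libraries (3.48%), thinned (6.41%) and without cells with G2M markers (3.43%), 0 under 5% (2.94%) and at a fold of 2 (5.29%), and 3 at a lower fold limit (17.6%, Prdx1 added as lower). In CD150-high CD48-high cells the 1 call (6.51%) became 2 with no cell filter (6.89%), without cells with G2M markers (5.44%) and at a lower fold limit (9.95%), 3 in suffix 2 alone (25.1%), and 0 with cuts at the median (4.48%), thinned (4.82%) and at a fold of 2 (3.69%). Between the CD48-low gates the 0 calls (2.08%) became 1 under 5% (3.28%, Txnip), with cuts at the median (4.07%, Foxo1) and in suffix 2 alone (8.79%, Foxo1).

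Between the libraries, the 4 calls in CD150-high CD48-low cells (14.9%) became 2 under 5% (11.9%), 1 with cuts over both libraries (5.18%), 3 without cells with G2M markers (13.5%) and 1 at a fold of 2 (7.53%). The 3 in CD150-low CD48-low cells (12.1%) became 4 under 5% (26.3%; Txnip, Sod1, Prdx1 and Gpx1), 1 with cuts over both libraries (4.91%), 2 without cells with G2M markers (11.9%), 6 at a lower fold limit (18.9%) and 0 at a fold of 2 (6.32%). The 5 in CD150-high CD48-high cells (19.3%) became 1 under 5% (10.6%), 0 with cuts over both libraries (7.24%), 4 without cells with G2M markers (14%), 6 at a lower fold limit (31.1%) and 1 at a fold of 2 (10.4%). The 1 in CD150-low CD48-high cells (8.09%) became 0 under 5% (7.63%) and 3 at a lower fold limit (14.9%). The 0 between Txnip-high and Txnip-low cells (5.3%) became 2 at 15000 UMIs per cell (4.63%) and 1 at a lower fold limit (12.3%, Prdx1). With each library centred, 1 of the first 5 genes most like Txnip and 2 of those most like Foxo3 were shared.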
